A study of Mus musculus with 6 samples.

Results

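The genes described here are the replication-dependent histone genes of the mouse, the clustered genes that encode the linker histone H1 and the core histones H2A, H2B, H3 and H4. They were taken by name from a table of 56980 genes: 65 gene names began with the clustered-histone symbols, and the 54 of these with at least 10 counts summed over the 6 libraries were kept as members. The members comprised 5 H1, 14 H2A, 13 H2B, 12 H3 and 10 H4 genes, and the other 11 names lay below 10 counts. The 14 H2A names include H2ac5-ps, with 14.86 counts, whose suffix marks it as a pseudogene. In GENCODE M21 (mouse build GRCm38), 44 members lay on chromosome 13 and 10 on chromosome 3.

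RNA came from ovaries of ICR mice, an outbred stock, and was read as poly(A) RNA in 6 libraries. The 3 FNZ libraries (replicates 2, 3 and 5) came from mice given FNZ at 30 mg/kg by intraperitoneal injection every day for 7 days, in a solvent of 50% polyethylene glycol 400 and 50% saline. The 3 control libraries (replicates 2, 3 and 4) came from mice injected with the solvent, and all 6 are labelled as 1 batch of 7 days. The labels give no age for the animals. The labels use the name FNZ without spelling it out, and they do not say whether every ovary came from a separate mouse, so each p-value measures only the spread between these libraries.

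Replication-dependent histone genes are transcribed mainly in S phase, when newly copied DNA has to be packed into nucleosomes. Their mRNAs are the exception among animal mRNAs: most end not in a poly(A) tail but just after a conserved stem-loop, which is bound by the stem-loop binding protein SLBP and cut with the help of the U7 small nuclear ribonucleoprotein. Some of these genes can also yield polyadenylated transcripts that run past the stem-loop to an ordinary poly(A) signal, as described in differentiated and non-dividing cells. Replacement histone variants such as H3.3 and H2A.Z come from genes outside the clusters, have ordinary poly(A) tails and are made throughout the cell cycle. Poly(A) selection with oligo(dT) therefore measures only part of the histone mRNA of a tissue, and the levels below are those of RNA that passed this selection.

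The stem-loop and the ordinary poly(A) signal are shown first because they are the kinds of 3′ end that poly(A) selection treats differently. Every one of the 54 members had a GENCODE M21 transcript of exactly the length given in the deposited table, and those transcripts were searched on their own strand for a 6-base arm GGNNCT, a 4-base loop TTTN and an arm AGNNCC that is the reverse complement of the first. The match was present in 34 members, against 14 of 58729 other protein-coding transcripts (0.024%). In the 30-base windows below, written 5′ to 3′ with T for U, the capitals mark the stem-loop.
H1f2: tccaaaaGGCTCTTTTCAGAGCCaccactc
H2ac18 and H2ac19: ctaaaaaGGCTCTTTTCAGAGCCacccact
H2bc12: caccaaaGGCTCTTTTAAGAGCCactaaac
H4c18: aactaaaGGCCCTTTTCAGGGCCatccaat
H4c9: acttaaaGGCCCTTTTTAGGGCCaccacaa
H4c11: ccctaaaGGTCCTTTTCAGGACCaccacat
H1f3: ctcaaacGGCTCTTTTCAGAGCCacccaca

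The form in H1f2, H2ac18, H2ac19 and H1f3 was the most frequent and occurred in 20 of the 34 members with a match. The form in H2bc12 occurred in 5 members and that in H4c18 in 4. By class, the stem-loop was found in 3 of 5 H1, 8 of 14 H2A, 7 of 13 H2B, 8 of 12 H3 and 8 of 10 H4 genes. Of the 20 members without a match, 9 have an annotated transcript with at most 30 noncoding bases, so the stretch where the stem-loop would lie is largely missing from the model.

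The annotated transcript ended within 100 bases after the stem-loop in 16 members and ran further in 18. The poly(A) signal AATAAA stood in the last 50 bases of the transcript in 0 of those 16, in 5 of those 18 and in 4 of the 20 members without a stem-loop, against 40.6% of other protein-coding transcripts. The 2 members with the most reads both carried it, and the capitals in their windows mark the signal.
H1f2: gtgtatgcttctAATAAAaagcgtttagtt
H2bc21: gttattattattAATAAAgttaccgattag
In H1f2, 840 bases of the transcript follow the stem-loop, and no stem-loop match was found in the 2620-base model of H2bc21. H2ac18 and H2ac19 are annotated to end 35 bases after the stem-loop. A match is a description of these annotated letters, and the deposited table does not say where the sequenced transcripts ended.

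The members made up a very small part of every library. Libraries held 19333493 to 23406628 counts, and member counts were 0.00628% to 0.00756% of the total in FNZ libraries and 0.00446% to 0.00542% in control libraries. Over all libraries the members had 7650 counts together, the median member had 33.56, and 47 of 54 had fewer than 100. The mean level ran from 0.068 to 19.7 TPM (a level scaled to transcript length and library), with a median of 0.819 TPM and 29 members under 1 TPM. H1f2, H2bc21, H2bc4, H2ac18 and H2ac19 together held 75.8% of all member counts.

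Levels differed with the annotated end. The 18 members whose models run more than 100 bases past the stem-loop held 43.96% of member counts, most of them from H1f2, the 20 without a match 37.07% and the 16 that end close to the stem-loop 18.97%. Per length the order was different, with a median of 0.405 TPM for the members running past the stem-loop, 1.11 TPM for those ending close to it and 1.314 TPM for those without a match. The first of these groups has long models, with a median of 1255 bases against 514 and 427.5 bases.

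**Figure D1:**
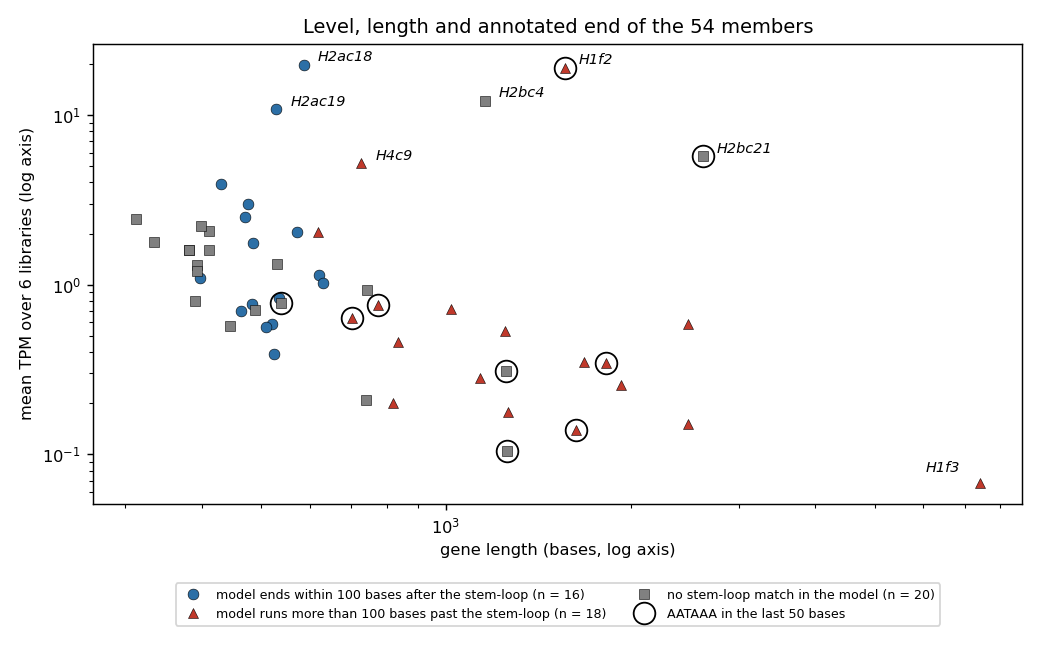
Mean TPM over 6 libraries (log axis) against gene length in bases (log axis) for the 54 members, with colour and shape for the annotated 3′ end and a ring for AATAAA in the last 50 bases. H2ac18 and H1f2 have the highest levels, at 19.7 and 18.9 TPM, with annotated ends of different kinds, and the 7425-base model of H1f3 has the lowest level, 0.068 TPM.

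Summed over the 54 members, the level was higher in every FNZ library than in any control library. FNZ replicates 2, 3 and 5 had 71.62, 75.58 and 62.8 CPM (counts scaled to the library total), against 44.6, 48.11 and 54.15 CPM in control replicates 2, 3 and 4. The means were 70.0 ± 6.54 CPM with FNZ and 48.95 ± 4.83 CPM in control (SD, n = 3 each), a log2 ratio of 0.52. The groups did not overlap, and neither did the 95% exact (Clopper-Pearson) intervals of the 2 closest libraries, 59.3 to 66.4 CPM in FNZ replicate 5 and 51.1 to 57.3 CPM in control replicate 4. These intervals cover counting error only, and copies made by PCR are counted as separate reads. In RNA from a whole ovary, more cells that hold a transcript and more transcript per cell cannot be told apart.

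The sum did not rest on a single gene. Without H1f2, FNZ libraries had 53.51, 47.86 and 44.02 CPM, against 33.79, 29.89 and 35.22 CPM in control libraries. Without the 5 members with the most counts, the other 49 summed to 19.77, 15.62 and 17.22 CPM with FNZ and 13.64, 9.57 and 11.11 CPM in control, a log2 ratio of 0.62. Both of these sums also separated the groups. On the per-length scale, the members summed to 136.1, 152.2 and 122.1 TPM in FNZ libraries, against 104.7, 100.1 and 116.6 TPM in control libraries, with a smaller log2 ratio of 0.35 and still no overlap.

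By class, all FNZ libraries lay above all control libraries for H2A and H3 on both scales, for H1 and H2B in CPM but not in TPM, and for H4 on neither. For H3 this rests on H3c13, H3c14 and H3c15 in FNZ replicate 3, as given below. Members ending close to the stem-loop, running past it or lacking it differed by similar amounts, with log2 ratios of the sums of 0.51, 0.46 and 0.59 in CPM. The groups did not overlap in any of these 3 sets in CPM, but in TPM they were separate only for the members lacking the stem-loop, at 46.68, 46.99 and 45.47 TPM with FNZ and 30.63, 29.97 and 36.73 TPM in control. The members on chromosome 13 and those on chromosome 3 had log2 ratios of 0.49 and 0.57 in CPM, without overlap. In TPM the chromosome 13 sums stayed separate, and those of chromosome 3 overlapped, at 42.98, 55.2 and 35.19 TPM with FNZ and 34.72, 36.22 and 41.1 TPM in control.

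**Figure D2:**
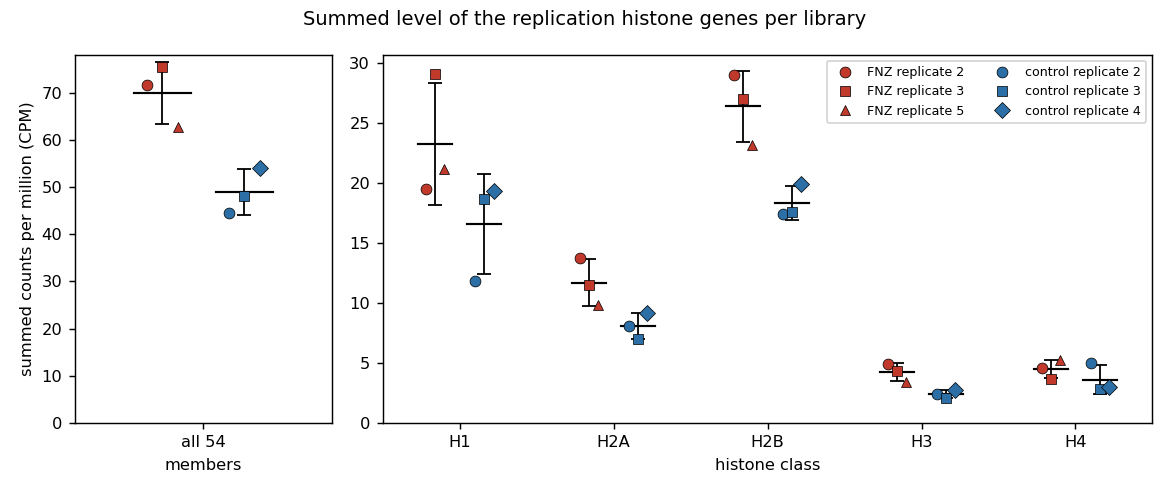
Summed CPM of all 54 members (left) and of each histone class (right) in each library, FNZ in red and control in blue, with bars for the mean and SD (n = 3 each). On this scale FNZ libraries lie above control libraries for all members and for H1, H2A, H2B and H3, and H4 overlaps. In TPM, H1 and H2B overlap too. The H3 separation rests on H3c13, H3c14 and H3c15 in FNZ replicate 3.

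H1 linker histones bind the DNA between nucleosomes and at their entry site. The 5 H1 genes summed to 19.48, 29.04 and 21.18 CPM with FNZ and 11.81, 18.63 and 19.35 CPM in control, and the margin between FNZ replicate 2 and control replicate 4 was narrow. H1f2, which encodes histone H1.2 (ENSMUSG00000036181; GRCm38 chr13:23738808-23740367, plus strand, 1 exon), made up most of it. Its level, scaled by TMM (trimmed mean of M values, as for all single genes below), was 18.58, 27.8 and 18.96 CPM in FNZ libraries, against 10.76, 18.07 and 18.61 CPM in control libraries. FNZ replicate 3 was the highest library and control replicate 2 the lowest, and FNZ replicate 2 lay just below control replicate 4. The log2 fold change of 0.46 ± 0.25 (SE) did not pass the test (edgeR quasi-likelihood, adjusted p = 0.311), and it was 0.25 without FNZ replicate 3 and likewise without control replicate 2.

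H1f3, which encodes histone H1.3 (ENSMUSG00000052565; chr13:23553262-23560686, plus strand), had far fewer reads, with 9, 14 and 14 counts in FNZ libraries and 6, 2 and 3 counts in control libraries. All FNZ libraries lay above all control libraries, at 0.471, 0.622 and 0.731 CPM against 0.255, 0.0877 and 0.134 CPM. The log2 fold change was 1.89 ± 0.51, with an edgeR adjusted p of 0.133, and it rests on 48 reads. Its FNZ libraries alone brought it past the minimum of reads for testing, so its presence among the tested genes is itself tied to its higher level there. This gene differs from the other members in its 7425-base model, of which 4884 bases follow the stem-loop, and none of its 150-base words occurs in another gene's transcript.

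H2A and H2B pair as dimers in the nucleosome core. The 14 H2A genes summed to 13.71, 11.5 and 9.807 CPM with FNZ and to 8.045, 6.989 and 9.12 CPM in control. H2ac18 and H2ac19 are neighbouring copies on opposite strands of chromosome 3 (chr3:96245497-96246082 and chr3:96239749-96240276), and every 150-base word of each occurs in another gene's transcript, so reads could not be assigned between them with certainty. Both overlap annotated exons of predicted genes on the opposite strand, H2ac18 also of one on its own strand, and whether counting used strand is not stated in the labels or the file.

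H2ac18 was listed at 5.495, 5.463 and 5.119 CPM with FNZ and 4.934, 3.245 and 6.115 CPM in control, so the FNZ libraries lay inside the control range (log2 fold change 0.17 ± 0.27, edgeR adjusted p = 0.735). H2ac19 was listed at 4.501, 3.908 and 1.515 CPM with FNZ and 0.8508, 2.237 and 1.294 CPM in control, with FNZ replicate 5 inside the control range (1.18 ± 0.51, edgeR adjusted p = 0.218). The listed fold changes of the copies differ although their reads cannot be separated. Tested as a single gene, the pair had 9.996, 9.371 and 6.634 CPM with FNZ and 5.785, 5.482 and 7.409 CPM in control. FNZ replicate 5 was below control replicate 4, and the log2 fold change was 0.48 with an edgeR adjusted p of 0.259.

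The 13 H2B genes summed to 28.96, 27.03 and 23.17 CPM with FNZ and 17.38, 17.61 and 19.93 CPM in control, the largest class by counts. H2bc21 (ENSMUSG00000068854; chr3:96221119-96223738, plus strand, 1 exon) shares no 150-base word with another transcript, and it was the member with the most reads whose groups did not overlap. It had 11.88, 12.44 and 13.95 CPM in FNZ libraries, against 6.89, 9.78 and 7.54 CPM in control libraries. Its log2 fold change was 0.66 ± 0.19. The call on this gene depends on the tool: edgeR gave an adjusted p of 0.134 and DESeq2 one of 0.0403, and the authors' deposited table lists a log2 fold change of 0.64 with an adjusted p of 0.0404. On the per-length scale the groups overlapped, with 5.50, 7.09 and 6.95 TPM with FNZ and 4.15, 5.87 and 4.61 TPM in control.

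H2bc4 (chr13:23684199-23692908, plus strand) has a model of 2 exons and no stem-loop match. Its levels were 12.8, 10.5 and 6.53 CPM with FNZ and 7.36, 4.91 and 8.79 CPM in control, with FNZ replicate 5 below 2 of the control libraries. The log2 fold change was 0.50 ± 0.31 (edgeR adjusted p = 0.362), and 0.29 without FNZ replicate 2. H2bc12, whose stem-loop is shown above, did not reach the minimum of reads in enough libraries to be tested. It had 22.78, 14.39 and 6.97 counts with FNZ and 7.67, 9.47 and 7.44 counts in control. H2bc8 had a negative value, −0.15 ± 0.51 (edgeR adjusted p = 0.884), and its sign changed when FNZ replicate 5 or control replicate 2 was left out (0.17 and 0.07).

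H3 and H4 form the central tetramer of the nucleosome. The 12 H3 genes had few reads, 95.8, 97.6 and 66.2 counts in FNZ libraries and 55.4, 47.5 and 60.8 counts in control libraries, which is 4.885, 4.323 and 3.426 CPM with FNZ and 2.366, 2.099 and 2.758 CPM in control. At 0.81, their log2 ratio was the highest of the 5 classes, and the groups did not overlap. H3c11 contributed 15.31, 4.48 and 9.57 counts with FNZ and 0, 3.09 and 2.4 counts in control. H3c13, H3c14 and H3c15, which share sequence, had 20.8, 58.6 and 7.2 counts together with FNZ and 17.4, 6.5 and 14.8 counts in control. FNZ replicate 3 was far above the other libraries in this sum, and FNZ replicate 5 was among the lowest. In FNZ replicate 3 these genes gave 2.597 of 4.323 CPM and 4.13 of 12.38 TPM of the H3 sum. In control replicate 4 they gave 0.6705 of 2.758 CPM and 1.53 of 10.42 TPM. Without them FNZ replicate 3 falls below control replicate 4 on both scales, so the H3 groups overlap.

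The 10 H4 genes gave 4.59, 3.675 and 5.217 CPM with FNZ and 4.994, 2.786 and 2.995 CPM in control. The groups overlapped, with control replicate 2 above FNZ replicates 2 and 3. Most of that library's H4 reads came from H4c9 (chr13:22040636-22041362, minus strand), which had 0.837, 1.82 and 2.82 CPM with FNZ and 3.4, 1.18 and 1.03 CPM in control. Its log2 fold change was −0.04 ± 0.60 (edgeR adjusted p = 0.977), and it became 0.72 without control replicate 2 and 0.32 without FNZ replicate 2. H4c18 had 1.15, 0.355 and 0.522 CPM with FNZ, of which only replicates 2 and 5 exceeded the narrow control range of 0.468, 0.439 and 0.446 CPM (0.57 ± 0.51, edgeR adjusted p = 0.528; −0.04 without FNZ replicate 2). H4c8 and H4c12 were not tested, and each had at most 15.99 counts in any library.

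**Figure D3:**
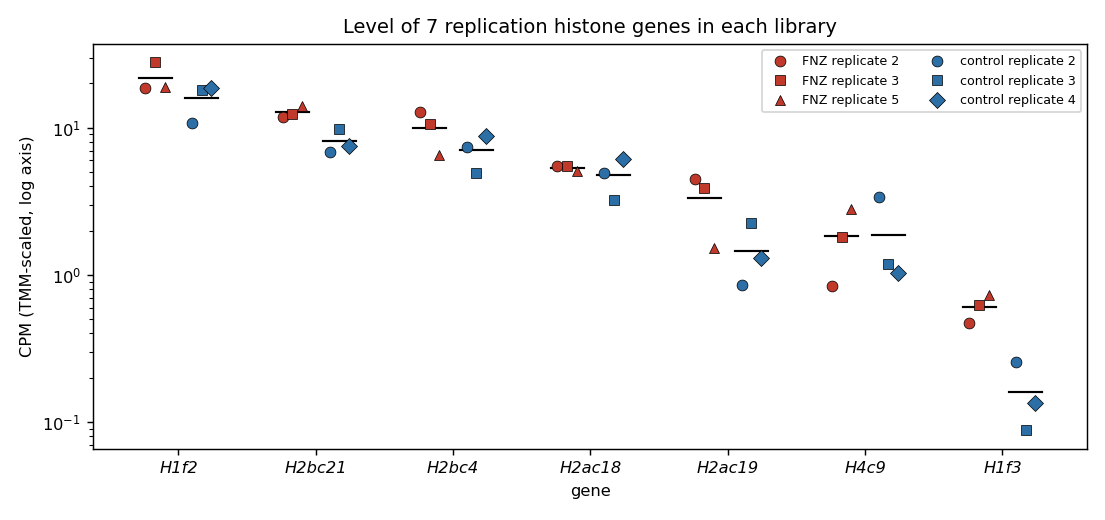
TMM-scaled CPM (log axis) of 7 members in each library, FNZ in red to the left and control in blue, with bars for the means (n = 3 each). The groups are separate for H2bc21 and H1f3, as given above, and overlap for the other 5.

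In the test across all genes, 12 of the 54 members had enough reads to be tested, and edgeR called 0 of them at an adjusted p under 0.05, as it called 0 of all 17735 genes tested (0%), of which 4107 had an unadjusted p under 0.05. At an unadjusted edgeR p under 0.05, H1f3 and H2bc21 were higher with FNZ (2 of 12, against 12% of all tested genes), and 0 of 12 were lower, against 11.2% of all tested genes. Among tested genes of 393 to 1781 bases, a length range like that of the members, 25% were higher and 2.54% lower at that p. H1f3 was tested only through its FNZ reads, so these counts are descriptions and carry no weight of their own. All FNZ libraries lay above all control libraries for these same 2 members, where the share over all tested genes was 15.8%, and below them for 0 of 12, where it was 13.8%. With DESeq2, which gave an adjusted p to 6 members, H2bc21 alone was called, while 4.54% of genes with an adjusted p were called higher and 10.1% in either direction. The authors' deposited table lists 1 of 54 members under 0.05, also H2bc21, beside 2.6% of all its genes, and gives 48 members an adjusted p of 1. The edgeR result over all genes depends on FNZ replicate 3: without that library 3230 genes were called, 0 of them members, and H2bc21 had an adjusted p of 0.068.

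Most fold changes of the members were positive. Of the 12 tested members, 10 had fold changes above 0 on the log2 scale and 2 below, and their median was 0.44 beside 0.01 for all tested genes, of which 51.2% were positive. These 12 passed a minimum of reads, so the 54 were also fitted without a filter. Then 46 were positive and 8 negative, with a median of 0.64, whereas 51.2% of genes with at least 10 counts were positive. All FNZ libraries lay above all control libraries for 11 of 54 members (13.8% of genes with at least 10 counts) and below them for 1, H2bc18 (11.8%). An unadjusted edgeR p under 0.05 with a positive fold change was found for 6 of 54, namely H2bc21, H3c11, H1f3, H2ac19, H2bc14 and H2ac13. This is close to the share of 9.71% among genes with at least 10 counts. The control counts of H3c11 (0, 3.09 and 2.4), H2ac13 (0, 3.21 and 0) and H2bc14 (0, 1 and 0) alone would not reach the minimum of 10. Their membership is tied to their FNZ reads, so this count is a description and carries no weight of its own. After adjustment over all genes 0 of the 54 passed, where 0.567% of all genes did. Members share sequence and reads, since 44 of them share at least 1 word of 150 bases with another gene's transcript and 21 share at least 50% of their words, so they are not separate observations.

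Fold changes over all genes moved with gene length, and the members are short. Their median length was 579 bases, against 2705 bases for all tested genes. Ordered by length in bins of 881 to 898 genes, the median log2 fold change was 0.41 in the shortest bin (median length 595.5 bases) and −0.31 in the longest (9101 bases). The 4688 tested genes between 393 and 1781 bases, the 10th to 90th percentile of member length, had a median of 0.26 (quartiles 0.00 and 0.50), and 75.3% of them were positive. The 9 tested members inside this window had a median of 0.41, within those quartiles. All FNZ libraries lay above all control libraries for 29.2% of genes in the window.

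Set beside genes of similar length, the members' shift was smaller. With an offset that removes the trend with length in each library, the median of the 12 tested members was 0.26. Without a filter, 62.0% of the 5439 genes of similar length and count range were positive, with a median of 0.19, beside 46 of 54 members and their median of 0.64. The 47 members with 10 to 100 counts had 40 positive values and a median of 0.83, beside 56.0% and 0.15 for 3208 genes of that length and count range. For 21.4% of genes with at least 10 counts and a similar length, all FNZ libraries lay above all control libraries, a share close to that of the members. Whether length accounts for the members' shift was not tested. H2bc21 and H1f3 have long models, and with the length offset their log2 values were 0.66 and 2.16 (edgeR adjusted p = 0.211 and 0.192), while H2ac18 changed sign to −0.12.

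**Figure D4:**
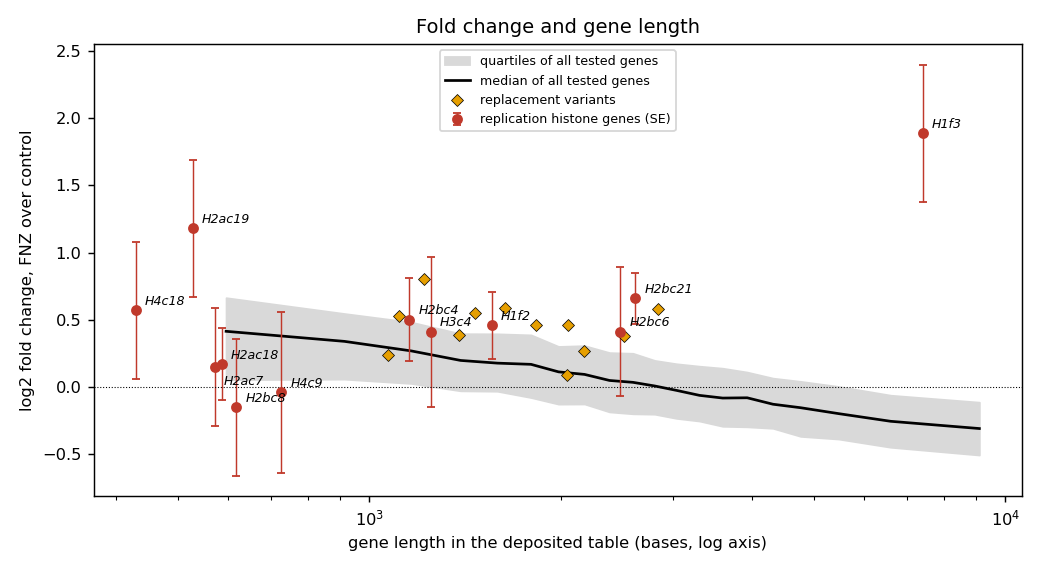
Log2 fold change, FNZ over control (edgeR), against gene length in bases (log axis) for the 12 tested members (red, with SE) and 12 replacement variants (orange), over the median and quartiles of all 17735 tested genes in length bins. The median of all genes falls with length, and H2bc21 and H1f3 lie well above it at 0.66 and 1.89.

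By library, the tested members and the genes of similar length did not keep the same order. In log2 units, the median distance of the 12 tested members from their 6-library average was 0.21, 0.19 and 0.05 in FNZ replicates 2, 3 and 5, against −0.15, −0.31 and −0.05 in control replicates 2, 3 and 4. For genes of similar length it was 0.25, −0.02 and 0.14 in FNZ libraries, against −0.10, −0.10 and −0.15 in control libraries. FNZ replicate 3 was near the middle for short genes but had a positive median for the tested members, and H1f2 was at its highest there. Without the 5 members with the most counts, the other 49 summed to 19.77, 15.62 and 17.22 CPM in FNZ replicates 2, 3 and 5. For these, replicate 3 was the lowest FNZ library but still lay above the control libraries, at 13.64, 9.57 and 11.11 CPM.

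Replacement variants had higher summed levels with FNZ as well. Their 12 genes summed to 2913, 2277 and 2735 CPM in FNZ libraries, against 2074, 2173 and 1828 CPM in control libraries, without overlap, and edgeR called 0 of 12 at an adjusted p under 0.05. All 12 log2 fold changes were positive, beside 51.2% of all tested genes, and their median was 0.46 (0.36 with the length offset). Of the 12, 9 had an unadjusted edgeR p under 0.05. The share higher at that p was 12% of all tested genes and 25% of those of 393 to 1781 bases. DESeq2 called 5 of the 12 higher, beside 4.54% of genes with an adjusted p. H3f3a, one of the genes for histone H3.3, had 848, 555 and 731 CPM with FNZ and 504, 508 and 419 CPM in control (0.58 ± 0.17, edgeR adjusted p = 0.138). Cenpa, the centromeric H3 variant, and H2az2, an H2A.Z gene, stood at 0.55 ± 0.11 and 0.59 ± 0.15 on the log2 scale (adjusted p = 0.131 and 0.132 with edgeR). For every 100 counts of the variants there were 2.46, 3.32 and 2.30 member counts in FNZ libraries, against 2.15, 2.21 and 2.96 in control libraries. This ratio overlapped between groups, FNZ replicate 3 and control replicate 4 being the highest.

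Among 24 genes for histone mRNA processing and decay, edgeR and DESeq2 called 0. The edgeR test gave an unadjusted p under 0.05 to 7 with a positive and 6 with a negative fold change. Among all tested genes these shares were 12% and 11.2%. The list median was −0.14 (0.01 with the length offset). Slbp, named for its role and not by the naming rule, had 136, 99.3 and 148 CPM with FNZ and 110, 115 and 97.4 CPM in control (0.25 ± 0.16, edgeR adjusted p = 0.376). FNZ replicate 3 was among the lowest libraries for it. Snrpe, for a protein shared by small nuclear ribonucleoproteins, had 0.56 (edgeR adjusted p = 0.153). Cpsf2, for a subunit of the cleavage complex, and Ncbp1, for the large cap-binding subunit, had −0.34 and −0.40 (edgeR adjusted p = 0.145 and 0.146). Of 16 polyadenylation factors, 5 were positive and 11 negative. For this list edgeR called 0 and DESeq2 called 1 higher, beside 4.54% of genes with an adjusted p. An unadjusted edgeR p under 0.05 was found for 1 in each direction. Pabpn1, the nuclear poly(A)-binding protein that controls tail length, had 272, 188 and 248 CPM with FNZ and 149, 170 and 166 CPM in control (0.54 ± 0.15, edgeR adjusted p = 0.133). Its groups did not overlap. Pabpc1, the cytoplasmic poly(A)-binding protein and the most abundant of the list, had −0.07 ± 0.10 (edgeR adjusted p = 0.703), and Pabpc4, a related protein, −0.27 ± 0.11 (edgeR adjusted p = 0.187).

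The summed level of genes of DNA synthesis did not separate the groups. The 35 S phase genes summed to 1988, 2126 and 2651 CPM with FNZ and 2442, 2569 and 2073 CPM in control, with overlap. Their median log2 fold change was −0.02, with 16 positive and 19 negative. All FNZ libraries lay above all control libraries for 1 of the 35 and below them for 2. Over all tested genes these shares were 15.8% and 13.8%. Mcm5, a subunit of the replicative helicase, had 63.0, 82.3 and 88.9 CPM with FNZ and 110, 110 and 91.0 CPM in control (−0.41 ± 0.15, edgeR adjusted p = 0.168). Ccne2, the S phase cyclin E2, had −0.53 ± 0.20 (edgeR adjusted p = 0.177), and Pcna, the sliding clamp and the most abundant of these genes, 0.04 ± 0.14 (edgeR adjusted p = 0.895), with a sign that changed under several alternatives. Of 16 histone chaperones, 7 were positive and 9 negative (median −0.13), and Ubn1 and Hira, subunits of the complex that deposits H3.3 outside S phase, had −0.55 ± 0.12 and −0.42 ± 0.12 (edgeR adjusted p = 0.131 and 0.134). Npm1, the most abundant chaperone, had 0.19 ± 0.17 (edgeR adjusted p = 0.522), and −0.13 in TPM. The edgeR test called 0 genes of both lists. At an unadjusted edgeR p under 0.05 it gave 2 higher and 2 lower S phase genes and 0 higher and 4 lower chaperones. Of all tested genes, 12% were higher and 11.2% lower at that p. DESeq2 called 0 S phase genes and 2 chaperones, beside 10.1% of genes with an adjusted p.

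A list of 12 RNAs that end without an ordinary poly(A) tail, at least in part, was also read, and 6 could be tested. Of these, Malat1 ends in an encoded A-rich stretch and Neat1 has a short polyadenylated form, so oligo(dT) can capture both. Malat1 had a log2 fold change of 0.50 ± 0.28 and Neat1 one of 0.25 ± 0.23 (edgeR adjusted p = 0.332 and 0.53), and their groups overlapped. The other 4 were Rn7sk, Rn18s-rs5 and the signal recognition particle RNAs Rn7s1 and Rn7s2, which are listed with identical counts. All 6 had positive fold changes. The edgeR test called 0, and DESeq2 called 1 higher, beside 4.54% of genes with an adjusted p. The 4 without a tail had an unadjusted edgeR p under 0.05, where 12% of all tested genes were higher. Rn7sk, the 7SK RNA that restrains transcription elongation, had 18.6, 5.2 and 5.8 CPM with FNZ and 2.98, 3.03 and 3.04 CPM in control (1.71 ± 0.50, edgeR adjusted p = 0.138; 0.88 without FNZ replicate 2). Rn7s1 had 1.59 ± 0.54 (edgeR adjusted p = 0.158; 0.83 without FNZ replicate 2). Rn18s-rs5, a ribosomal RNA sequence, had 5360, 3940 and 3430 CPM with FNZ and 3060, 2910 and 3170 CPM in control (0.48 ± 0.17, edgeR adjusted p = 0.17). For Rn7sk and Rn18s-rs5, all FNZ libraries were above all control libraries, and FNZ replicate 2 was the highest. The histone sum was highest in FNZ replicate 3. Without H1f2 that sum was 53.51, 47.86 and 44.02 CPM in FNZ replicates 2, 3 and 5, so it too was highest in replicate 2. The part of RNA without a tail in the members' levels was not tested.

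Markers of the labelled tissue were present in every library. The 6 granulosa cell markers summed to 5032, 5151 and 5109 CPM with FNZ and 4600, 4431 and 4304 CPM in control. Most of this sum was Inha, at 3620, 3430 and 3600 CPM with FNZ and 2780, 2940 and 2870 CPM in control. Over the 6 markers the median log2 fold change was 0.06, with 4 positive and 2 negative. The 8 oocyte markers summed to between 329.8 and 751.1 CPM with FNZ and between 400.1 and 631.9 CPM in control. Macrophage markers were lower with FNZ in 5 of 5 genes by fold change, with sums of 77.14, 83.85 and 68.95 CPM against 165.5, 91.84 and 174.8 CPM in control. DESeq2 called 4 of the 5 lower while edgeR called 0 (4 at an unadjusted p under 0.05). At that p 11.2% of all tested genes were lower, and DESeq2 called 10.1% of genes with an adjusted p in either direction. All 4 tested lymphoid markers had negative fold changes (Cd79a had too few reads to test), and all 5 together summed to 8.514 to 10.99 CPM with FNZ and 10.09 to 26.74 CPM in control. Oviduct markers reached 594.1 CPM in control replicate 4, against at most 30.56 CPM in the other 5 libraries, and that library also had the highest histone sum among controls. The 5 theca and luteal markers did not move together, and their median log2 fold change was −0.14. Hsd3b1, a steroid dehydrogenase, had 3970, 3410 and 3380 CPM with FNZ and 2370, 1980 and 1570 CPM in control. It was the largest part of the list's sum in every library, a sum of 4150 to 5815 CPM with FNZ and 3553 to 4086 CPM in control. Star, which carries cholesterol into mitochondria, had 31.9, 52.2 and 18.6 CPM with FNZ and 70.1, 94.3 and 588 CPM in control (−2.87 ± 0.97, edgeR adjusted p = 0.174; −1.26 without control replicate 4). With FNZ and in control, erythroid markers summed to 219.2 to 1047 CPM and 529.8 to 956.1 CPM, and adipocyte markers to 24.18 to 187.2 CPM and 32.85 to 190.5 CPM. The part of these cell types in the histone levels was not tested.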

How the data were processed

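The deposited table holds expected counts per gene and library, as the authors deposited them (12.0% to 14.8% of values are not whole). It also holds TPM per library and the authors' DESeq2 output, a log2 fold change with a p-value and its adjusted form, per the file headers. The submitters' processing notes name bcl2fastq 2.20, DESeq2 1.38.3 and build GRCm39. Neither they nor the labels name an aligner, a counting program, an annotation release or a strand setting.

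Here expected counts were rounded, then fitted with edgeR 4.0.16 under R 4.3.3 (TMM, filterByExpr, robust glmQLFit, two-sided quasi-likelihood test), with Benjamini-Hochberg adjustment over all 17735 genes tested and calls under 0.05. The test was planned for counts, and expected counts were treated likewise. Sums over members use CPM of the total counts, single genes TMM-scaled CPM. Libraries follow the sample titles. Members, lists and tests were chosen with earlier results of these data known. Genes named are the members with the highest mean TPM or smallest edgeR p in either direction, and in each other list of 10 or more genes the one of highest mean TPM and the 2 of smallest p. H2bc18, H3c13, H3c14 and H3c15 are named for their range, and H2ac5-ps for its suffix.

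Sequences and coordinates are from GENCODE M21 (GRCm38), matched by gene ID; words of 150 bases equal the read length. Alternatives were dropping the filter, a minimum of 1 CPM in 3 libraries, other scalings, DESeq2 1.42.0, limma 3.58.1 (voom, and log2(TPM + 1)), a loess length offset per library (span 0.3), replicate blocks and leaving out each library.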

Additional observations from a re-analysis of the deposited data

How the results depend on the processing

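The count of members called by edgeR (0) was 0 in every alternative except DESeq2, which called 1, and so was that over the related lists except for 17 with DESeq2, 1 without a filter, 1 with a replicate block by title number, 5 with the length offset and without FNZ replicate 3, and 32 without FNZ replicate 3 alone. Leaving out each library gave 0 to 32 calls in the lists. The median of the tested members (0.44) was 0.64 without a filter, 0.63 with DESeq2, 0.09 with limma on log2(TPM + 1), 0.26 with the length offset, 0.63 with the replicate block by title number, and 0.32 to 0.80 with a library left out. Its difference from genes of similar length (0.15) was 0.34, 0.37, 0.04 and 0.33 in the same order without the offset, and 0.10 with it. In these settings the comparison genes were the 4688 that passed the filter. The members were not held to that filter in the fit without a filter and with DESeq2. That difference was 0.41 with a window from the lowest to the highest member length, and 0.09 to 0.49 with a library left out. Members whose groups did not overlap (2 of 12) numbered 12 of 54 without a filter, 1 of 7 with a filter of 1 CPM and 1 of 12 in TPM. With a library left out they numbered 4 to 8 of 14 to 20 tested, where fewer libraries have to be separate. Of all tested genes, 15.8% had FNZ above and 13.8% below. Of genes with at least 10 counts, 13.8% had FNZ above and 11.8% below. Shares under the other settings were not computed. The log2 ratio of the sums (0.52) was 0.35 in TPM and stayed within 0.45 to 0.62 otherwise. Signs reversed for H2ac18 (−0.02 in TPM, −0.12 with the offset, −0.24 with the offset and without FNZ replicate 3, −0.04 without control replicate 3), H4c9 (0.01 with upper quartile scaling, 0.02 with limma voom, 0.08 with a block by library number, 0.32 without FNZ replicate 2, 0.72 without control replicate 2), H4c18 (−0.04 without FNZ replicate 2), H2bc8 (0.17 without FNZ replicate 5, 0.07 without control replicate 2), Pabpc1 (0.00 with the offset and without FNZ replicate 3), Pcna (0.04 as reported; −0.22 in TPM, −0.11 with the offset, −0.03 with the offset and without FNZ replicate 3, −0.17 with the block by title number, −0.35 with that block and the offset, −0.10 to 0.14 with a library left out), Npm1 (−0.13 in TPM, −0.13 with the block by title number and the offset) and Slbp (−0.20 in TPM, −0.08 with the block by title number and offset). With a library left out, H2ac18 ranged from −0.04 to 0.39, H4c9 from −0.49 to 0.72, H4c18 from −0.04 to 0.88, H2bc8 from −0.42 to 0.17, H1f2 from 0.25 to 0.59, H2bc4 from 0.29 to 0.73, Rn7sk from 0.88 to 2.02, Rn18s-rs5 from 0.29 to 0.61, Mcm5 from −0.52 to −0.27, Neat1 from 0.07 to 0.45 and Malat1 from 0.30 to 0.91. With the offset and without FNZ replicate 3, H1f2 was at 0.08. Beyond what each construction shows, the cause was not tested. The replicate numbers share only a number: deviations of FNZ and control libraries with the same title number correlated at −0.085 and −0.135, and those with the same library number also at −0.321. With 47 of 54 members under 100 counts, most single-gene values rest on few reads.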
